A study of Mus musculus with 37 samples.

Results

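The genes followed were 33 members of the tight junction: 19 claudins, the 3 other membrane-spanning proteins Ocln, Marveld2 and Marveld3, the 4 scaffold proteins Tjp1, Tjp3, Cgn and Cgnl1, the 3 junctional adhesion molecules F11r, Jam2 and Jam3, and the 4 polarity genes Crb3, Pard3, Pard6b and Prkci. They were chosen by name, as a list of genes, and were followed in all 9 components of the developing mouse kidney that the study sampled. The array carried 64 probe sets for them, among 45101. For 32 of the 33 a probe set passed the filter on low signal, so they are 32 of the 15709 genes tested, and Cldn19 did not. All samples came from wild-type CD-1 mice. There were 8 samples of metanephric mesenchyme and 4 of ureteric bud at E11.5 (E, embryonic day), 5 of renal vesicle at E12.5, and, at E15.5, 4 of S-shaped body, 4 of renal corpuscle (capillary loop stage and maturing), 2 of proximal tubule, 3 of ureteric tip, 3 of medullary collecting duct and 4 of medullary interstitium.

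Tight junctions close the space between neighbouring epithelial cells near their apical surface. Claudins are membrane proteins whose strands span that space, and the mix of claudins in a cell sets which ions and how much water may pass between cells. Occludin, tricellulin (Marveld2) and Marveld3 share the strands, the ZO proteins (Tjp genes) and the cingulins (Cgn, Cgnl1) tie them to actin on the inner side, and the Crumbs and PAR proteins place the junction at the border between apical and lateral membrane. In the adult kidney the claudins differ from one nephron segment to the next, with a leaky mix in the proximal tubule and a tight one in the collecting duct, while the ureteric bud and the metanephric mesenchyme, which turns into epithelium as the renal vesicle forms, are the sources of those segments.

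Each sample was, per the labels, a pool of about 50 sections from 5 kidneys. Its RNA was amplified in 2 rounds and hybridised to 1 array, so that 37 arrays were compared. Replicates are numbered by accession order only. The labels name laser capture for every sample, but the titles of all 4 ureteric bud samples and of 4 mesenchyme samples name dissection or collagenase, 3 mesenchyme titles name laser capture and 1 names no method. Whether pools share animals, within or between components, is not given. P-values measure the spread between these pools and would be too small if replicate pools of 1 component share animals. A level is a log2 signal after quantile normalization, and the signal of one gene's probe set cannot be set against that of another gene. Calls of higher or lower required an adjusted p under 0.05 (limma, Benjamini-Hochberg over all 15709 genes) and a log2 difference of at least 1. In pooled tissue, fewer cells of a type and less RNA per cell cannot be told apart.

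The labels were checked against marker genes. The proximal tubule list (8 genes, among them Lrp2, Cubn, Hnf4a and Slc34a1) had a mean log2 signal of 14.83 and 13.90 in the proximal tubule arrays, and the ureteric list (9 of 10 genes measured) lay between 12.30 and 12.75 in the bud and tip arrays and up to 11.84 in the collecting duct. Library 3 labelled S-shaped body stood apart: its podocyte list (4 of 7 genes measured) was at 14.93 and its proximal tubule list at 12.44, against a median of 11.21 and a range of 8.84 to 9.27 in the other 3, and its early nephron list (6 genes) was at 9.02 against 12.22 to 12.81. Library 4 labelled renal corpuscle had a podocyte list of 10.70 and an early nephron list of 12.59, against 14.15 to 15.28 and 8.97 to 9.71 in the other 3. Where leaving out both changed a call of a member, the values without them are given too. Corpuscle library 2, which those values keep, had a nephron progenitor list (6 genes) of 11.28, against 7.46 to 8.54 in the other 3. Its ureteric list was at 10.00 against 7.76 to 8.74.

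The claudins are spread over many chromosomes, with neighbours among them. On GRCm38.p6, Cldn3 (chromosome 5, 134986214 to 134987476) and Cldn4 (chromosome 5, 134945123 to 134946934) lie side by side, and so do Cldn6 (chromosome 17, 23679348 to 23682446) and Cldn9 (chromosome 17, 23682584 to 23684026). Promoters are shown for 4 claudins that were high in different tissues, Cldn4 in ureteric epithelium, Cldn2 in proximal tubule, Cldn5 in renal vesicle, S-shaped body and renal corpuscle, and Cldn11 in interstitium, as the 250 bases before the annotated start (RefSeq, GRCm38.p6), 5′ to 3′ on the gene's strand. Capitals mark a match to the binding motif of the Grainyhead-like factors, which act in ureteric epithelium. The motif was searched as AACCNGTT on both strands, in the 250 bases before each start.
Cldn4, chr5:134946935-134947184, minus strand: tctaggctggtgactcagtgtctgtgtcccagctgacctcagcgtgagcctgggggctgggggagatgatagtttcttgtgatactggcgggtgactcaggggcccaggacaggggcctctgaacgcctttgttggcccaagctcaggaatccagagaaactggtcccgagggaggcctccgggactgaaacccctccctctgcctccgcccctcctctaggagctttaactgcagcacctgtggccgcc
Cldn2, chrX:139800558-139800807, plus strand: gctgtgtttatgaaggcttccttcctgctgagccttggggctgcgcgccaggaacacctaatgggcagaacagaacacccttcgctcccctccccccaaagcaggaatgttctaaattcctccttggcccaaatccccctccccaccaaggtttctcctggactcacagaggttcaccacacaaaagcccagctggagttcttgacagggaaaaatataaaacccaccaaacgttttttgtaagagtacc
Cldn5, chr16:18776597-18776846, plus strand: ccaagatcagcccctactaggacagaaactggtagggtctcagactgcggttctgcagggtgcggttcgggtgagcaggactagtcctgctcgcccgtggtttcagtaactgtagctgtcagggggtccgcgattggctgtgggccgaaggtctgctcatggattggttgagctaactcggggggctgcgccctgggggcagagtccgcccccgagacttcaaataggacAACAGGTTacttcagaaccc
Cldn11, chr3:31149670-31149919, plus strand: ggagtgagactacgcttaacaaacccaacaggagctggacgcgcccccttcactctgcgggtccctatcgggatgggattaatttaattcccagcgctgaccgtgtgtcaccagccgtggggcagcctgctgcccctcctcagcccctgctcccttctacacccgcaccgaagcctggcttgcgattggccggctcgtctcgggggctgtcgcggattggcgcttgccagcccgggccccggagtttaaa

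Of the 33 genes, 27 had an entry in the promoter table; Cldn8, Cldn9, Cldn23, Marveld3, Jam2 and Jam3 had none. The Grainyhead motif was found in 2 of the 27, Cldn5 and Cgn, against 2.0% of 27025 genes. In Cldn5 it begins 20 bases before the start, and Cldn5 was low in ureteric tissue. In Cgn, which was high there, it begins 29 bases before the start, as the last 30 bases show.
Cgn, chr3:94786483-94786512, minus strand: tAACAGGTTggtgggcgggggaaaggaggg
The other searches gave the GC box GGGCGG in 20 of the 27 against 35.4% of genes, the AP-2 motif GCCNNNGGC in 6 of 27 against 15.4%, and the HNF1 motif in 0 of 27 against 0.44%, all on both strands. A GC box can overlap an AP-2 match. A match describes these letters only. GC content was 62.0% before Cldn4, 52.0% before Cldn2, 59.6% before Cldn5 and 63.6% before Cldn11, with a median of 52.4% over 32851 promoters. Cldn10 has 2 annotated starts, with 36% and 72.4% GC in their upstream windows.

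**Figure D1:**
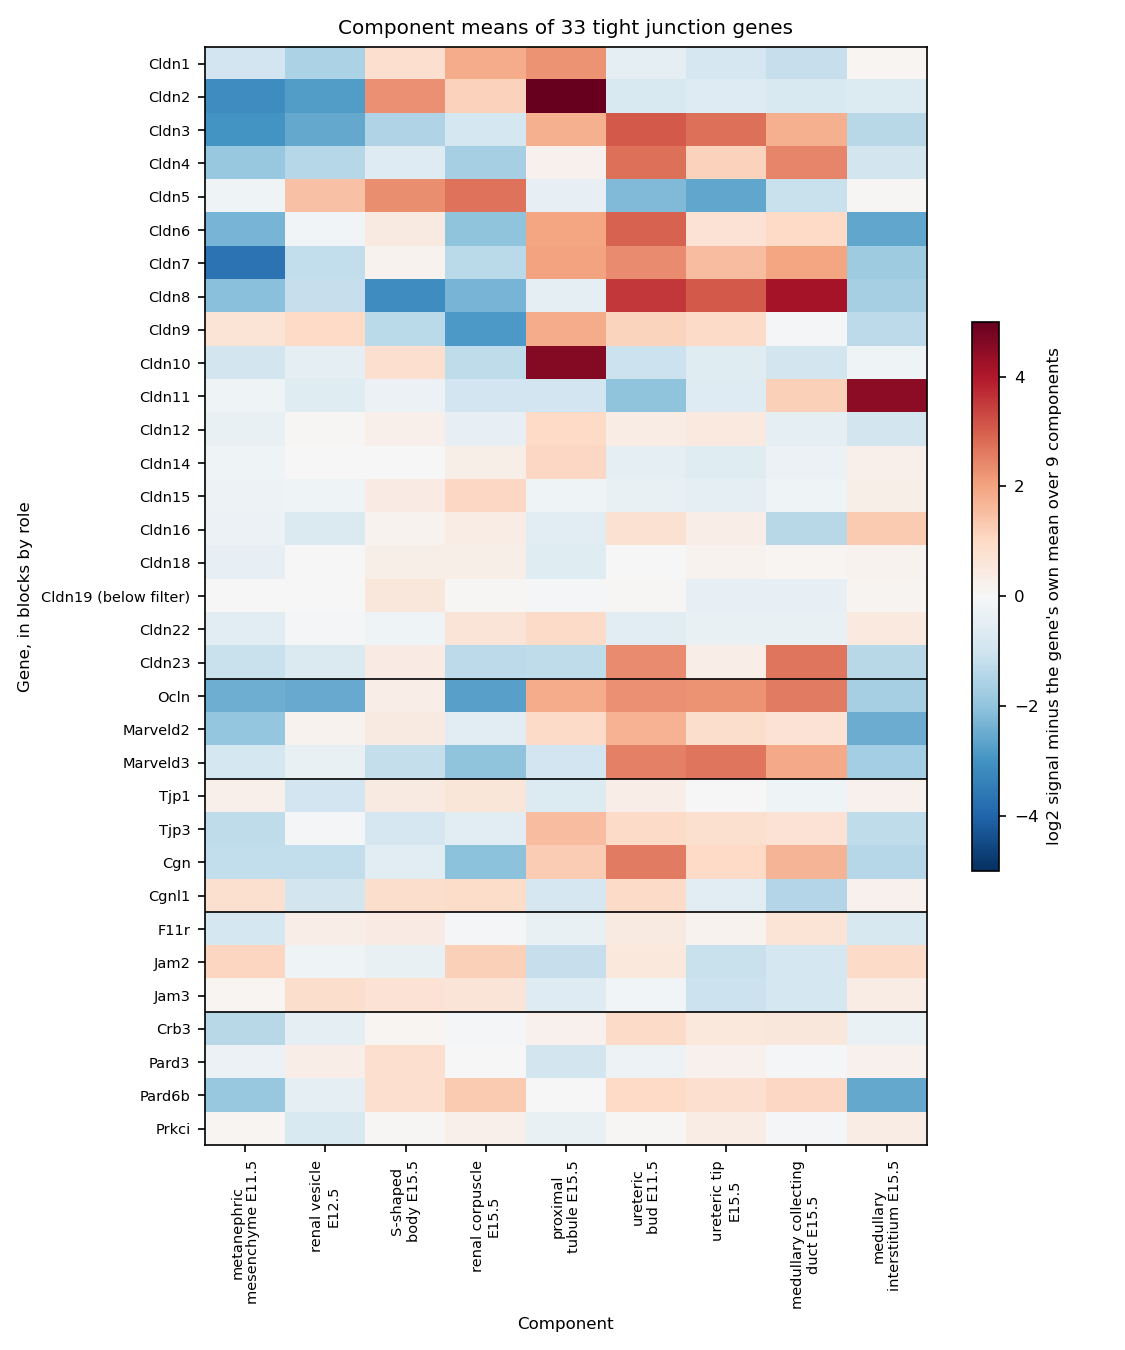
Component means of the 33 genes. Rows are genes, in blocks of claudins, occludin and the MARVEL proteins, scaffolds, adhesion molecules and polarity genes; columns are the 9 components; colour is the log2 signal minus the gene's own mean over the components (red higher, blue lower). Red fills the bud, tip and collecting duct columns for Cldn3, Cldn4 and Cldn8, the proximal tubule column for Cldn2 and Cldn10, and the interstitium column for Cldn11. For Cldn3 the proximal tubule column is as red as that of the collecting duct (means of 12.48 and 12.46).

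Across the 36 pairs of components, 301 of 1152 combinations of a tested member and a pair were called (26.1%), where 9.91% of all combinations of a gene and a pair were. Of the 32 tested members, 24 were called in at least 1 of the 15 comparisons described here, as were 42.4% of all genes. Called above each of the 8 other components were Cldn2 and Cldn10 in proximal tubule, as were 2.17% of all genes, and Cldn11 in medullary interstitium, as were 0.242%. No member was called above all 8 others in the remaining 7 components, where between 0% of all genes (S-shaped body) and 0.261% (mesenchyme) were; the share was 0.00637% in the corpuscle. Cldn2 had the widest span of component means of the members, 8.47 on the log2 scale, followed by Cldn8 with 7.25 and Cldn11 with 6.5. The narrowest spans among tested members were those of Cldn18 (0.89) and Prkci (1.12).

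The ureteric bud differed from the metanephric mesenchyme in 17 members, 15 higher and 2 lower, where 8.14% of all genes were called, 4.08% higher and 4.06% lower. In all 17 the arrays of the 2 components did not overlap, which being called already favours. Such separation was seen in 13.3% of all genes, called or not, so the 2 figures are not like for like. The median log2 difference was 0.89 over the 32 members and 0.02 over all genes. Cldn3, a sealing claudin, was at 14.26, 13.78, 13.05 and 13.94 in the bud, and ran from 5.45 to 10.67 in the mesenchyme with a median of 6.96. The bud lay above the highest mesenchyme array by more than the spread among its own 4 arrays. The difference was 6.07 (SE 1.01, 67.1-fold, adjusted p = 5.37e-05).

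Cldn7, a claudin of collecting duct epithelium, was at 15.36, 15.17, 14.65 and 15.22 in the bud, and between 5.60 and 12.67 in the mesenchyme with a median of 8.80. Cldn8, which forms a barrier to cations in the collecting duct, was at 13.46, 12.70, 13.56 and 12.82, and between 5.44 and 10.16 with a median of 7.55. Cldn6, known as a claudin of embryonic epithelia, was at 14.18, 13.53, 13.14 and 13.64, and between 6.6 and 10.58 with a median of 8.15. All 3 were tight among bud arrays and loose among mesenchyme arrays. Their log2 differences were 6.05 (SE 0.87, adjusted p = 5.16e-06) for Cldn7, 5.60 (SE 0.77, adjusted p = 2.59e-06) for Cldn8 and 5.28 (SE 0.63, adjusted p = 2.4e-07) for Cldn6.

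Cldn4, the chromosomal neighbour of Cldn3 and a partner of Cldn8 in the collecting duct, was at 12.27, 11.84, 11.85 and 12.30 in the bud, and between 5.64 and 9.25 in the mesenchyme with a median of 7.36, a difference of 4.66 (SE 0.62, adjusted p = 1.43e-06). Cldn23 was at 10.39, 10.29, 9.0 and 10.56 in the bud and between 5.77 and 7.0 in the mesenchyme, a difference of 3.49 (SE 0.55, adjusted p = 2.09e-05). For Cldn23 every mesenchyme array lay below 7.89, the level that served as the filter on low signal. Cldn2 was low in both tissues but higher in the bud, with 7.81 to 8.72 against 5.67 to 6.72, a difference of 2.33 that gave an adjusted p of 0.0239, and of 0.068 to 0.089 without bud library 1, 3 or 4.

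Cldn5 and Cldn11 went the other way. Cldn5, best known from the junctions of blood vessel endothelium, was at 9.09, 10.19, 8.93 and 9.86 in the bud and between 10.23 and 12.45 in the mesenchyme, a difference of -1.98 (SE 0.46, adjusted p = 0.00318). The endothelial list (9 genes) was at 8.14 to 8.99 in the bud and 8.82 to 10.65 in the mesenchyme; its part in the Cldn5 difference was not tested. Cldn11, known from myelin and from the Sertoli cells of the testis, was at 7.35, 6.85, 7.19 and 7.39 in the bud and between 7.77 and 9.91 in the mesenchyme, a difference of -1.79 (adjusted p = 0.036). The Cldn11 call was lost without any 1 of the 4 bud libraries (adjusted p between 0.076 and 0.12) and without mesenchyme library 1, 3, 5 or 6 (0.054 to 0.074).

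Of the 14 members that are not claudins, 8 were higher in the bud and none lower. Ocln, which shares the claudin strands, was at 12.74, 12.48, 12.55 and 12.92 in the bud and between 5.32 and 10.43 in the mesenchyme (difference 4.70, SE 0.87, adjusted p = 0.000223). Marveld2, which seals the corners where cells meet, differed by 3.68 and Marveld3 by 3.39, so all 3 proteins of that family were higher. Of the scaffolds, Cgn, which links the junction to actin and to RhoA regulators, differed by 3.82 (SE 0.44, adjusted p = 1.22e-07) and Tjp3, the ZO-3 scaffold, by 2.20 (SE 0.52, adjusted p = 0.00342). Tjp1, the ZO-1 scaffold, was at 13.76 to 14.30 in the bud and 13.24 to 14.41 in the mesenchyme and was not called, and neither was Cgnl1. Among polarity genes Pard6b, the adaptor of the PAR complex, differed by 2.90 and Crb3, the epithelial Crumbs protein, by 2.36, while Pard3 and Prkci were not called. Of the adhesion molecules Jam2 and Jam3 were not called. F11r (JAM-A) differed by 1.33, a call that rests on 1 of its probe sets (0.28 by the probe set with the larger variance) and that was lost without bud library 1 (adjusted p = 0.052). Within the only date that the titles give to both tissues, bud library 3 exceeded mesenchyme library 6 by 7.61 for Cldn3, 7.55 for Cldn7, 6.55 for Cldn6 and 6.27 for Cldn8.

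**Figure D2:**
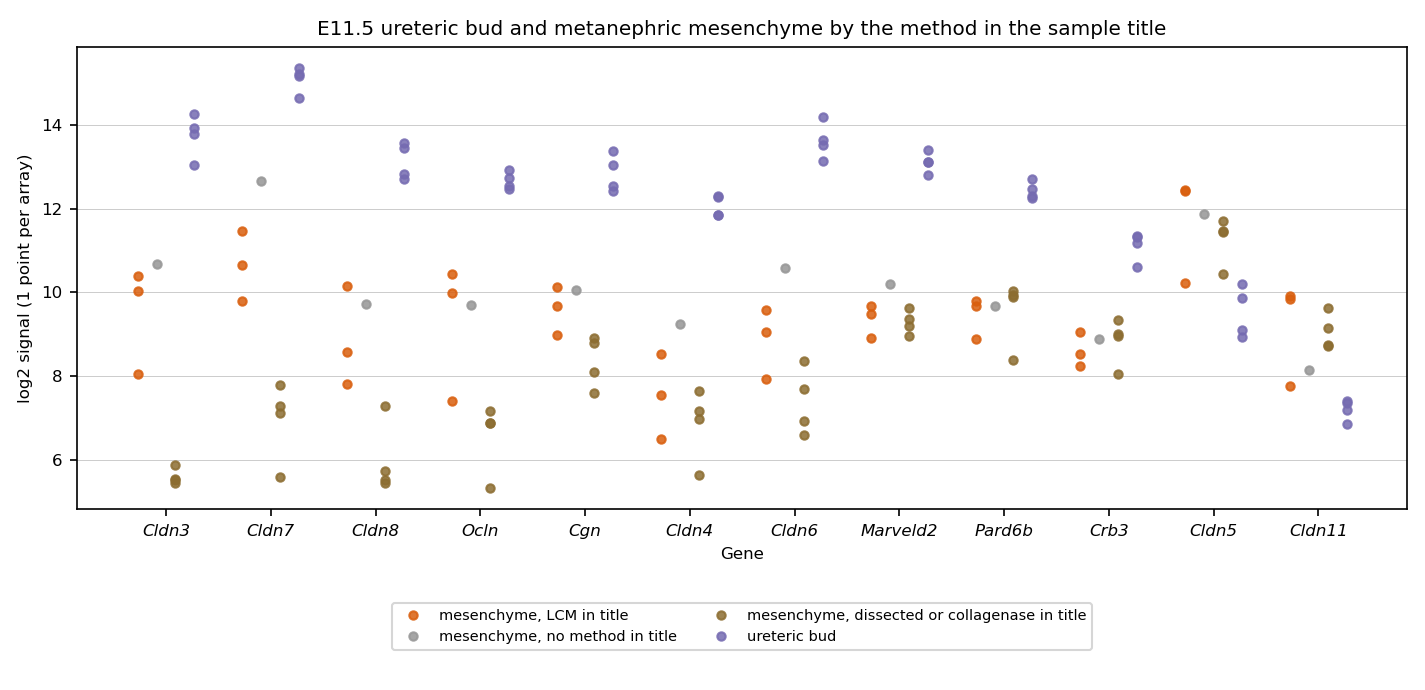
Signals of 12 members in the bud and mesenchyme arrays. The vertical axis is the log2 signal, each point is 1 array, and mesenchyme arrays are split by the method that their title names. For Cldn3 the 4 dissected or collagenase arrays lie between 5.45 and 5.88 and the 3 laser capture arrays between 8.04 and 10.39, below all bud arrays.

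The mesenchyme arrays were also compared by the method named in the sample titles. Cldn3 averaged 9.49 in the 3 arrays titled laser capture and 5.60 in the 4 titled dissected or collagenase, Cldn7 10.64 and 6.95, Cldn8 8.85 and 6.0, and Ocln 9.27 and 6.56. The 2 sets of arrays did not overlap for these 4 genes, for Cgn (9.59 and 8.35) or for Jam3 (11.37 and 10.11), and the reverse order without overlap was seen for Cldn16, Tjp1 and Jam2. That is 9 of 32 members, where 21.3% of all genes did not overlap in this split, 10% with laser capture higher and 11.3% with it lower. The epithelial list (12 genes, among them Epcam, Cdh1, Krt8 and Krt18) moved the same way, with 8.99 to 10.05 against 7.98 to 8.30, and so did the ureteric list, with 9.08 to 10.36 against 7.86 to 8.32; the part of these lists in the claudin values was not tested. All 4 bud titles name dissection or collagenase, so tissue and method cannot be told apart when the bud is set against mesenchyme titled laser capture. In that comparison the bud was called higher for Cldn3, Cldn4, Cldn6, Cldn7, Cldn8 and Cldn23. In all 13 members were called, where 4.62% of all genes were. Not called were Ocln (difference 3.40, adjusted p = 0.05), Tjp3 (1.96, 0.073), F11r (1.18, 0.1), Cldn2 (2.29, 0.2) and Cldn11 (-1.98, 0.15).

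The renal vesicle, the first epithelium that the mesenchyme forms, differed from the mesenchyme in 8 members, 6 higher and 2 lower, where 11.8% of all genes were called, 3.86% higher and 7.98% lower. Cldn7 averaged 11.53 against 9.05 (difference 2.48, SE 0.81, adjusted p = 0.034), Cldn6 10.54 against 8.34 (2.20, SE 0.59, adjusted p = 0.01) and Marveld2 11.55 against 9.43 (2.12, SE 0.51, adjusted p = 0.00458). Pard6b differed by 1.43 and F11r by 1.21. Cldn3, Cldn4 and Cldn8 were not called here: their vesicle means were 8.11, 7.91 and 8.47. The arrays of vesicle and mesenchyme overlapped for Cldn6 and Cldn7 and did not for Marveld2, Pard6b, F11r and Cldn5. Cgnl1, the paralog of cingulin, was lower by 1.70 (SE 0.34, adjusted p = 0.000821), but its probe set with the largest variance gave 0.055 (adjusted p = 0.97), and Tjp1 was lower by 1.2, a call lost without vesicle library 1 (difference -0.61, adjusted p = 0.25). Against the 3 mesenchyme arrays titled laser capture no member was called by limma, where 2.41% of all genes were, with 8 at an unadjusted p under 0.05. The difference was then 0.89 for Cldn7 (adjusted p = 0.58), 1.68 for Cldn6 (0.19), 2.19 for Marveld2 (0.088), 1.5 for Cldn5 (0.17) and -1.46 for Cgnl1 (0.087).

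Cldn5 was high in every renal vesicle array, at 13.20, 13.35, 13.16, 12.97 and 13.32, above all 8 mesenchyme arrays (10.23 to 12.45), with a difference of 1.70 (SE 0.43, adjusted p = 0.00672). In the same 5 vesicle arrays the endothelial list was at 8.23, 8.33, 9.81, 9.42 and 8.13, and the list was lower than in the mesenchyme by a median of 1.18, with 3 of its 9 genes called lower. In vesicle and mesenchyme, Pecam1 averaged 6.67 and 7.85, Cdh5 8.88 and 10.62, Kdr 10.03 and 11.53, and Tek 9.42 and 11.07. Egfl7, also on the list, went the other way (11.63 and 11.46). The part of endothelial cells in the vesicle Cldn5 value was not tested. The S-shaped body had Cldn5 at 13.85, 13.83, 14.97 and 13.52 and the renal corpuscle at 14.75, 13.22, 15.32 and 14.52. The corpuscle overlapped both others, all S-shaped body arrays lay above all vesicle arrays, and no array of another component reached these 3, the highest being a mesenchyme array at 12.45. Cldn5 was called above 6 components in the S-shaped body and in the renal corpuscle and above 5 in the vesicle.

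**Figure D3:**
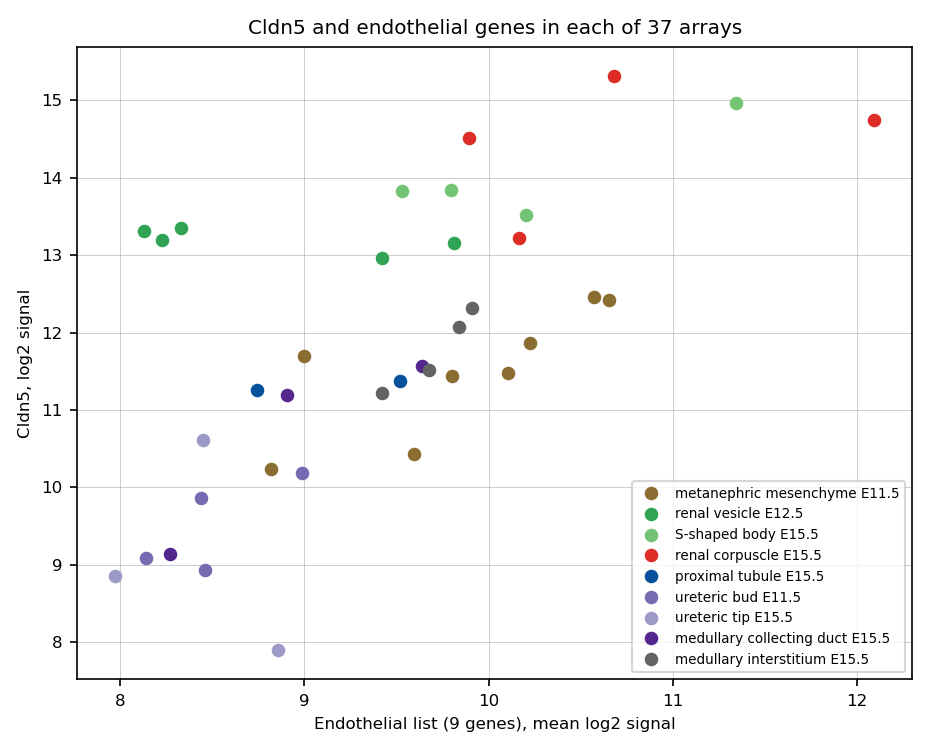
Cldn5 beside endothelial genes. The horizontal axis is the mean log2 signal of 9 endothelial genes, the vertical axis the log2 signal of Cldn5, and each point is 1 of the 37 arrays, coloured by component. The 5 renal vesicle arrays sit at 12.97 to 13.35 for Cldn5 with an endothelial mean of 8.13 to 9.81, a range that ureteric arrays with Cldn5 at or below 11.57 share in part.

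From renal vesicle to S-shaped body 2 members were called, both higher, where 4.97% of all genes were called, 3.26% higher and 1.71% lower. Cldn2, the pore-forming claudin that lets sodium and water pass in the proximal tubule, was at 5.84, 7.23, 6.0, 6.19 and 6.41 in the vesicle and at 11.74, 9.54, 14.17 and 10.19 in the S-shaped body. Every S-shaped body array lay above every vesicle array, and the highest was the library 3 that carries proximal tubule markers. The difference was 5.08 (SE 0.75, adjusted p = 3.84e-05) with all libraries and 4.16 (SE 0.71, adjusted p = 0.000518) without both doubted libraries, where 2.6% of all genes were called. Cgnl1 was higher by 1.80 (SE 0.40, adjusted p = 0.00611) by its brightest probe set, and by 0.73 (adjusted p = 0.65) by the one with the largest variance. Ocln averaged 10.74 against 7.90 and was not called; its 4 S-shaped body values were 11.78, 10.02, 8.89 and 12.29.

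The proximal tubule, with 2 arrays, differed from the S-shaped body in 6 members, where 9.9% of all genes were called, 5.61% higher and 4.28% lower. Cldn2 was at 14.69 and 14.34, a further 3.10 above the S-shaped body (SE 0.97, adjusted p = 0.0343). Cldn10, whose isoforms form anion pores in the proximal tubule and cation pores in the loop of Henle, was at 14.11 and 11.52 in the tubule and at 9.52, 7.64, 9.88 and 9.33 in the S-shaped body (difference 3.73, SE 0.64, adjusted p = 0.000149). Its single probe set does not separate transcripts from the 2 annotated starts. Tjp3 was higher by 2.42, and Cldn5 (-2.72), Pard3 (-1.73) and Cgnl1 (-1.71) were lower. The count fell to 1 without proximal tubule library 1, to 3 without proximal tubule library 2, and to 3 without the S-shaped body library 3. Without both doubted libraries 5 members were called, where 12.4% of all genes were: Cldn2 (4.02) and Cldn10 (3.99) were higher, and Cldn5 (-2.41), Cldn23 (-2.24) and Cgnl1 (-1.59) lower. Tjp3 (1.89, adjusted p = 0.084) and Pard3 (-1.43, adjusted p = 0.064) were then not called. In the only pair of these tissues with the same date in their titles, Cldn2 differed by 4.79 and Cldn10 by 3.89.

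**Figure D4:**
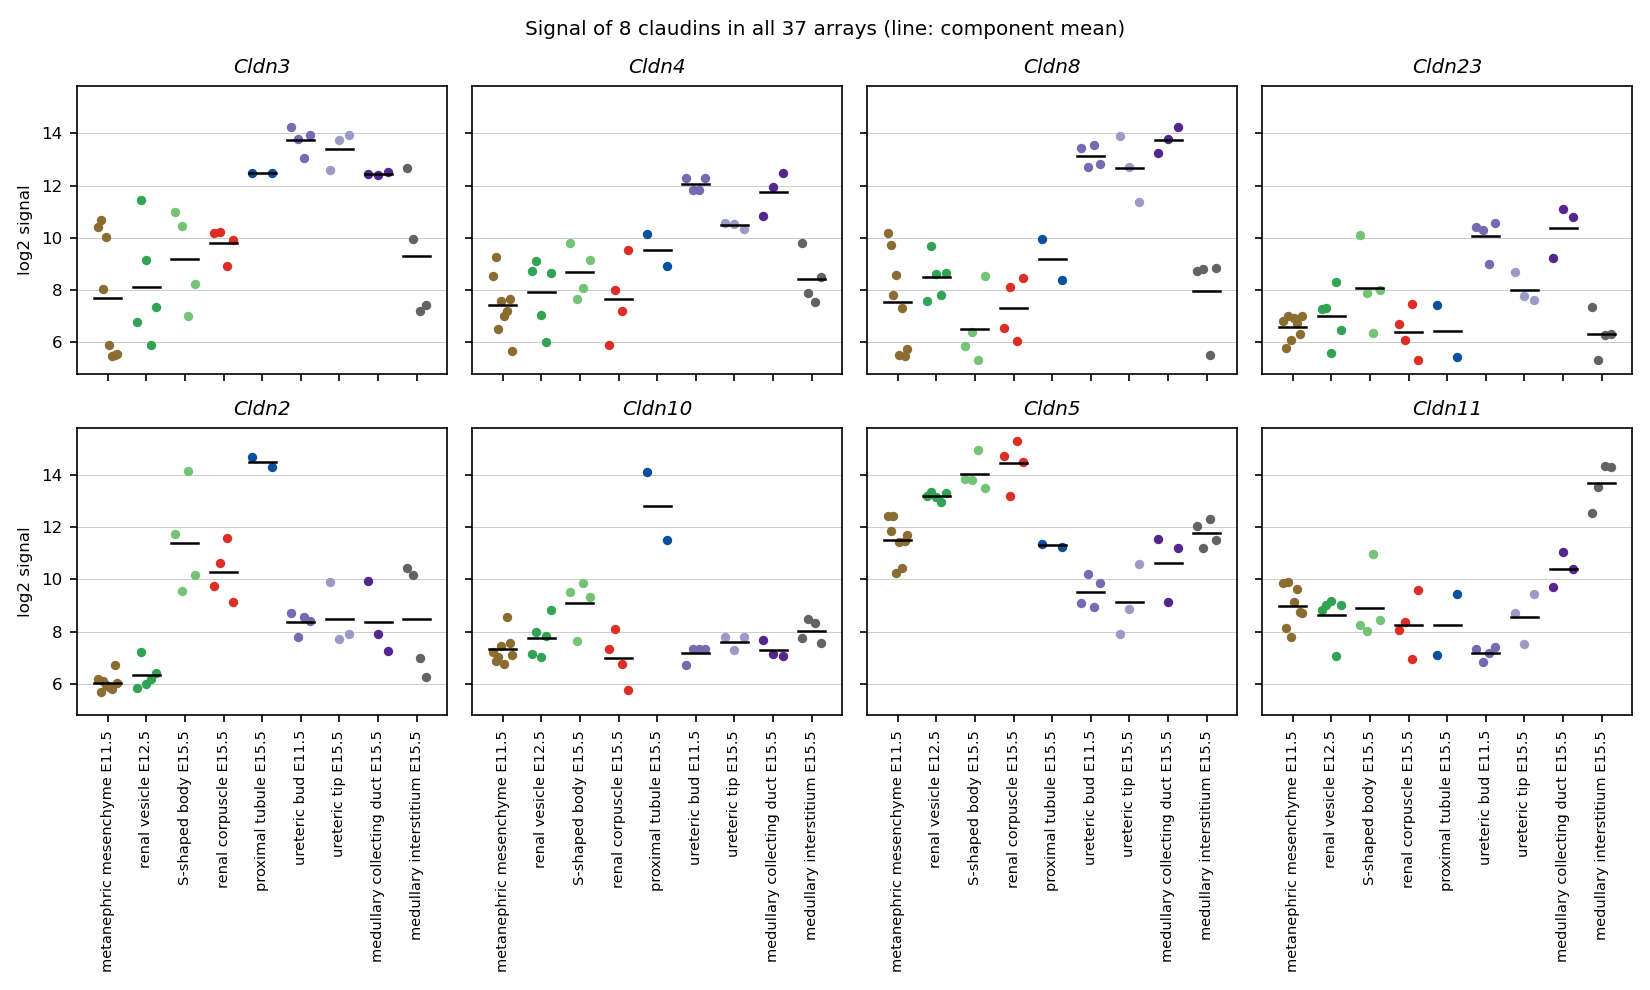
Signals of 8 claudins in all 37 arrays. Each panel is 1 gene, the vertical axis is the log2 signal, points are arrays grouped by component and the short line is the component mean. Cldn3 and Cldn4 have their highest component mean in the bud, Cldn8 and Cldn23 in the collecting duct, Cldn2 and Cldn10 in proximal tubule, Cldn5 in the vesicle, S-shaped body and corpuscle, and Cldn11 in medullary interstitium.

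Set against the mean of the 5 other E15.5 components, the proximal tubule had 6 members called, all higher, where 15.2% of all genes were called, 9.13% higher and 6.07% lower. Cldn2 was higher by 5.11 (SE 0.83, 34.4-fold, adjusted p = 3.23e-05) and Cldn10 by 5.01 (SE 0.55, 32.3-fold, adjusted p = 5.02e-08). Cldn6 was at 12.36 and 12.91, higher by 2.44, and Cldn12, a claudin that was bright in every array (13.07 to 15.21), was at 15.21 and 15.12, higher by 1.19. Tjp3 (1.79) and Cgn (1.53) were just past the threshold, with adjusted p of 0.0484 and 0.0477. Without proximal tubule library 1 the count fell to 2, Cldn2 and Cldn10; without both doubted libraries it was 7, with Cldn9 added (2.36). The second Cldn2 probe set was weak throughout, with component means of 6.84 to 8.56 and its highest mean also in the proximal tubule, so the size of the Cldn2 differences rests on 1 probe set.

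Cldn1, a claudin of the parietal epithelium of Bowman's capsule in the adult, was highest in proximal tubule (13.07 and 9.75) and renal corpuscle (8.66, 12.16, 11.64 and 11.63). The 2 proximal tubule arrays differed by more than the means of tubule and corpuscle did. Among pairs it was called higher in the corpuscle than in mesenchyme (2.81, adjusted p = 0.00701), ureteric bud (2.33, adjusted p = 0.0484) and renal vesicle (3.42, adjusted p = 0.00483), and higher in the proximal tubule than in mesenchyme, vesicle (3.81) and collecting duct. Its other probe sets stayed at component means between 5.48 and 7.78. Cldn9, the neighbour of Cldn6, was at 12.06 and 13.96 in the proximal tubule and between 10.84 and 13.38 in the mesenchyme, and ranged in the renal corpuscle from 5.76 to 12.01.

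In the renal corpuscle 11 members were called against the other E15.5 components, 2 higher and 9 lower, where 5.38% of all genes were called, 2% higher and 3.38% lower. Cldn5 was higher by 3.08 (SE 0.43, 8.43-fold, adjusted p = 3.21e-05) and Cgnl1 by 1.26 (SE 0.34, adjusted p = 0.022). Podocyte genes were high in the same arrays, with Podxl at 16.33, 15.90, 16.56 and 13.29, and so were endothelial genes, with a list mean of 12.09, 10.16, 10.68 and 9.89; the part of either in the Cldn5 value was not tested. Lower were Ocln (6.35, 10.60, 7.19 and 6.66; difference -3.78, SE 0.80, adjusted p = 0.00361), Cldn9 (-2.88), Cldn8 (-2.73), Cgn (-2.46), Cldn6 (-2.32), Marveld3 (-2.14), Cldn4 (-2.11), Cldn10 (-1.99) and Cldn11 (-1.72). Cldn11 averaged 8.25 in the corpuscle, 8.26 in the proximal tubule, 8.55 in the tip and 8.92 in the S-shaped body. It averaged 10.39 in the duct and 13.69 in the interstitium. Cldn10 averaged 6.98 in the corpuscle, 7.30 in the duct, 7.61 in the tip and 8.03 in the interstitium. It averaged 9.09 in the S-shaped body and 12.82 in the proximal tubule. Cldn8 averaged 7.28 in the corpuscle and was lower in the S-shaped body (6.51). Ocln was high in 1 of the 4 corpuscle arrays, library 2, which also had Cldn9 at 12.01 and the nephron progenitor list at 11.28. The part of that list in these values was not tested. The count was 4 without corpuscle library 1 and 6 without library 3. Without both doubted libraries it was 14, 5 higher and 9 lower, where 7.16% of all genes were called; Cldn15 (1.44), Tjp1 (1.24) and Jam2 (2.07) joined the higher ones, and Cldn7 (-2.78) the lower ones, while Marveld3 left them (-1.90, adjusted p = 0.1).

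Between renal corpuscle and S-shaped body no member was called by limma with all libraries, where 0.567% of all genes were (0.102% higher and 0.465% lower), although 8 members had an unadjusted p under 0.05. The nearest was Cldn10, at 6.98 against 9.09 (difference -2.11, adjusted p = 0.0501). Leaving out 1 library gave 1 or 2 calls without corpuscle library 2 or 4 or S-shaped body library 2 or 3. Without both doubted libraries 2 were called, where 4.04% of all genes were: Cldn6 was lower by 3.13 (SE 0.79, adjusted p = 0.0181) and Jam2, an adhesion molecule of endothelium and other cells, higher by 2.77 (SE 0.63, adjusted p = 0.00872). Cldn6 was at 7.74, 8.67 and 7.46 in corpuscle libraries 1 to 3 and at 10.79 in library 4, against 10.99 to 11.23 in the S-shaped body. Jam2 was at 7.31, 6.37 and 6.87 in the S-shaped body libraries 1, 2 and 4 and at 11.09 in library 3. The S-shaped body against the other E15.5 components had 2 calls, where 1.45% of all genes were called, 0.719% higher and 0.732% lower. Cldn5 was higher by 2.58 (adjusted p = 0.000789) and Cldn8, at 5.82, 6.37, 5.32 and 8.54, was lower (difference -3.65, adjusted p = 0.00395); both were also called without both doubted libraries (2.28 and -3.18). With the date in the titles as a fixed term neither was called (2.47, adjusted p = 0.47, and -3.61, adjusted p = 0.71).

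The 2 ureteric components of E15.5 were compared with the 2 nephron tubule components, S-shaped body and proximal tubule. Of the members 8 were called, 4 higher and 4 lower, where 9.87% of all genes were called, 3.9% higher and 5.98% lower. Cldn8 was at 13.89, 12.71 and 11.37 in the ureteric tip and at 13.26, 13.77 and 14.26 in the collecting duct, against at most 9.95 in the tubule arrays, a difference of 5.37 (SE 0.75, 41.3-fold, adjusted p = 6.26e-06). Marveld3 was at 11.04, 10.47 and 11.30 in the tip and averaged 10.16 in the duct, a difference of 3.34 (SE 0.66, adjusted p = 0.000728), though another of its probe sets had its highest component mean in the proximal tubule (8.73). Cldn4 was higher by 2.02 and Cldn23 by 1.95. Cldn23 averaged 8.01 in the tip and 10.38 in the duct, against 8.08 in the S-shaped body and 6.41 in the proximal tubule. The tip was thus not above the S-shaped body for Cldn23. Lower in ureteric tissue were Cldn2 (-4.52), Cldn10 (-3.50), Cldn5 (-2.81) and Cldn1 (-2.52). All 8 were also called without both doubted libraries, where 9.82% of all genes were. The Cldn1 call was lost without proximal tubule library 1 (-1.69, adjusted p = 0.21), collecting duct library 2 (0.068) or tip library 2 (0.054). The Cldn4 call was lost without proximal tubule library 2 (0.11) or collecting duct library 3 (0.07), and that of Cldn23 without proximal tubule library 2 (0.11).

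Cldn3 and Cldn7 were not called between ureteric and nephron tubule tissue. Cldn3 averaged 12.48 ± 0.02 (SD, n = 2) in the proximal tubule and was at 12.60, 13.74 and 13.93 in the tip and at 12.43, 12.40 and 12.54 in the collecting duct. Cldn7 was at 14.53 and 14.98 in the proximal tubule, at 14.08, 14.29 and 14.56 in the tip and at 13.61, 15.57 and 15.01 in the duct. The S-shaped body had Cldn3 at 8.20 and 7.01 in its libraries 4 and 3 and at 10.45 or more in the other 2, all below the ureteric arrays, and Cldn7 at 13.56, 13.83, 11.34 and 13.05. For both genes the proximal tubule lay within the ureteric range and the S-shaped body reached below it. The 4 Cldn3 probe sets all had their highest component mean in the ureteric bud.

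Against the other E15.5 components, the ureteric tip had 3 members called, where 1.57% of all genes were called, 0.732% higher and 0.84% lower. Cldn8 (3.72, SE 0.79, adjusted p = 0.00983) and Marveld3 (3.45, SE 0.70, adjusted p = 0.00699) were higher and Cldn5, at 7.89, 8.85 and 10.61, was lower (-3.33, SE 0.48, adjusted p = 0.000151). The count was 1 without tip library 1 and also without tip library 2. The medullary collecting duct had 5 called, where 1.85% of all genes were, 1.36% higher and 0.497% lower. Cldn8 was higher by 5.05 (SE 0.79, adjusted p = 0.000116), Cldn23 by 3.35 (9.23, 11.11 and 10.80; SE 0.56, adjusted p = 0.000341), Cldn4 by 2.81 and Cgn by 2.05, and Cgnl1 was lower by 1.60. Without collecting duct library 2 the count was 2, and without library 3 it was 3; Cldn8 and Cldn23 were called in each case. Without both doubted libraries Cldn10 was also called lower (-1.64).

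The ureteric tissues were also compared with each other. The counts below were larger in other fits. When only the components compared were fitted, 7 members were called both between tip and bud and between collecting duct and bud. With array weights 6, 5 and 3 were called (tip and bud, duct and bud, tip and duct). The shares of all genes given below belong to the counts below and not to these other fits. Whether the larger counts are particular to the members therefore cannot be told from them. From bud to collecting duct 2 were called, where 10.1% of all genes were (4.09% higher and 6.03% lower). Cldn11 was higher, at 9.72, 11.06 and 10.40 against 6.85 to 7.39 (3.20, SE 0.70, adjusted p = 0.00219), and Cgnl1 was lower (-2.41, SE 0.46, adjusted p = 0.000566; -0.77 by the probe set with the largest variance). The stromal list (8 genes, among them Foxd1, Pdgfra, Col1a1 and Col1a2) was at 13.00, 11.16 and 12.17 in the duct and at 8.07 to 8.99 in the bud; its part in the Cldn11 difference was not tested. Between tip and bud no member was called by limma, where 4.24% of all genes were (2.02% higher and 2.22% lower), with 7 at an unadjusted p under 0.05; Cldn6 averaged 11.41 in the tip and 13.63 in the bud (adjusted p = 0.105). Between tip and collecting duct none was called, where 0.344% of all genes were (0.121% higher and 0.223% lower), with 5 at an unadjusted p under 0.05. Cldn23 was the nearest, at 8.67, 7.74 and 7.61 in the tip against 9.23, 11.11 and 10.80 in the duct (difference -2.37, SE 0.73, adjusted p = 0.254). In the 2 pairs of tip and duct libraries whose titles share a date, Cldn23 differed by -3.05 and -3.50, Cldn8 by -1.54 and -2.41 and Cldn4 by -1.97 and -1.59.

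The medullary interstitium had 10 members called against the other E15.5 components, 1 higher and 9 lower, where 6.09% of all genes were called, 3.46% higher and 2.64% lower. Cldn11 was at 12.55, 13.55, 14.35 and 14.32, above every one of the 33 other arrays, the highest of which was 11.06 in a collecting duct array. The difference was 4.82 (SE 0.51, 28.2-fold, adjusted p = 5.21e-07), and Cldn11 was also called above each of the 8 components on its own, by 3.30 over the collecting duct (adjusted p = 0.00355) and by 6.5 over the ureteric bud. The stromal list was at 14.01 to 14.52 in the same arrays. It was at 14.28 in the S-shaped body library 3, where Cldn11 was at 10.96.

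Lower in the interstitium were Pard6b (10.54, 10.41, 8.31 and 6.32; difference -3.34, SE 0.45, adjusted p = 1.23e-05), Cldn6 and Marveld2 (-3.00 each), Cldn7 (-2.66), Ocln (-2.53), Cldn2 (-2.15), Cgn (-1.68), Tjp3 (-1.62) and Cldn12 (-1.08). Cldn2 averaged 8.46 in the interstitium, 8.50 in the tip and 8.38 in the collecting duct. It averaged 10.28 in the corpuscle, 11.41 in the S-shaped body and 14.51 in the proximal tubule. Ocln and Cgn averaged 8.74 and 8.86 in the interstitium and were lower still in the corpuscle (7.70 and 8.20). Epithelial signal was not the same in the 4 pools. Library 1 had the epithelial list at 11.87 and the ureteric list at 11.44, against 9.14 to 10.15 and 8.58 to 10.12 in the other 3, and it had Cldn3 at 12.66 and Cldn7 at 13.37 against at most 9.93 and 11.73. The part of the epithelial list in these values was not tested. The count was 6 without interstitium library 3 and also without library 4, 14 without library 1, and 12 without both doubted libraries, where Cldn11 differed by 5.04 and where Jam2 (1.58) was also called higher and Cldn23 (-1.75) lower.

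**Figure D5:**
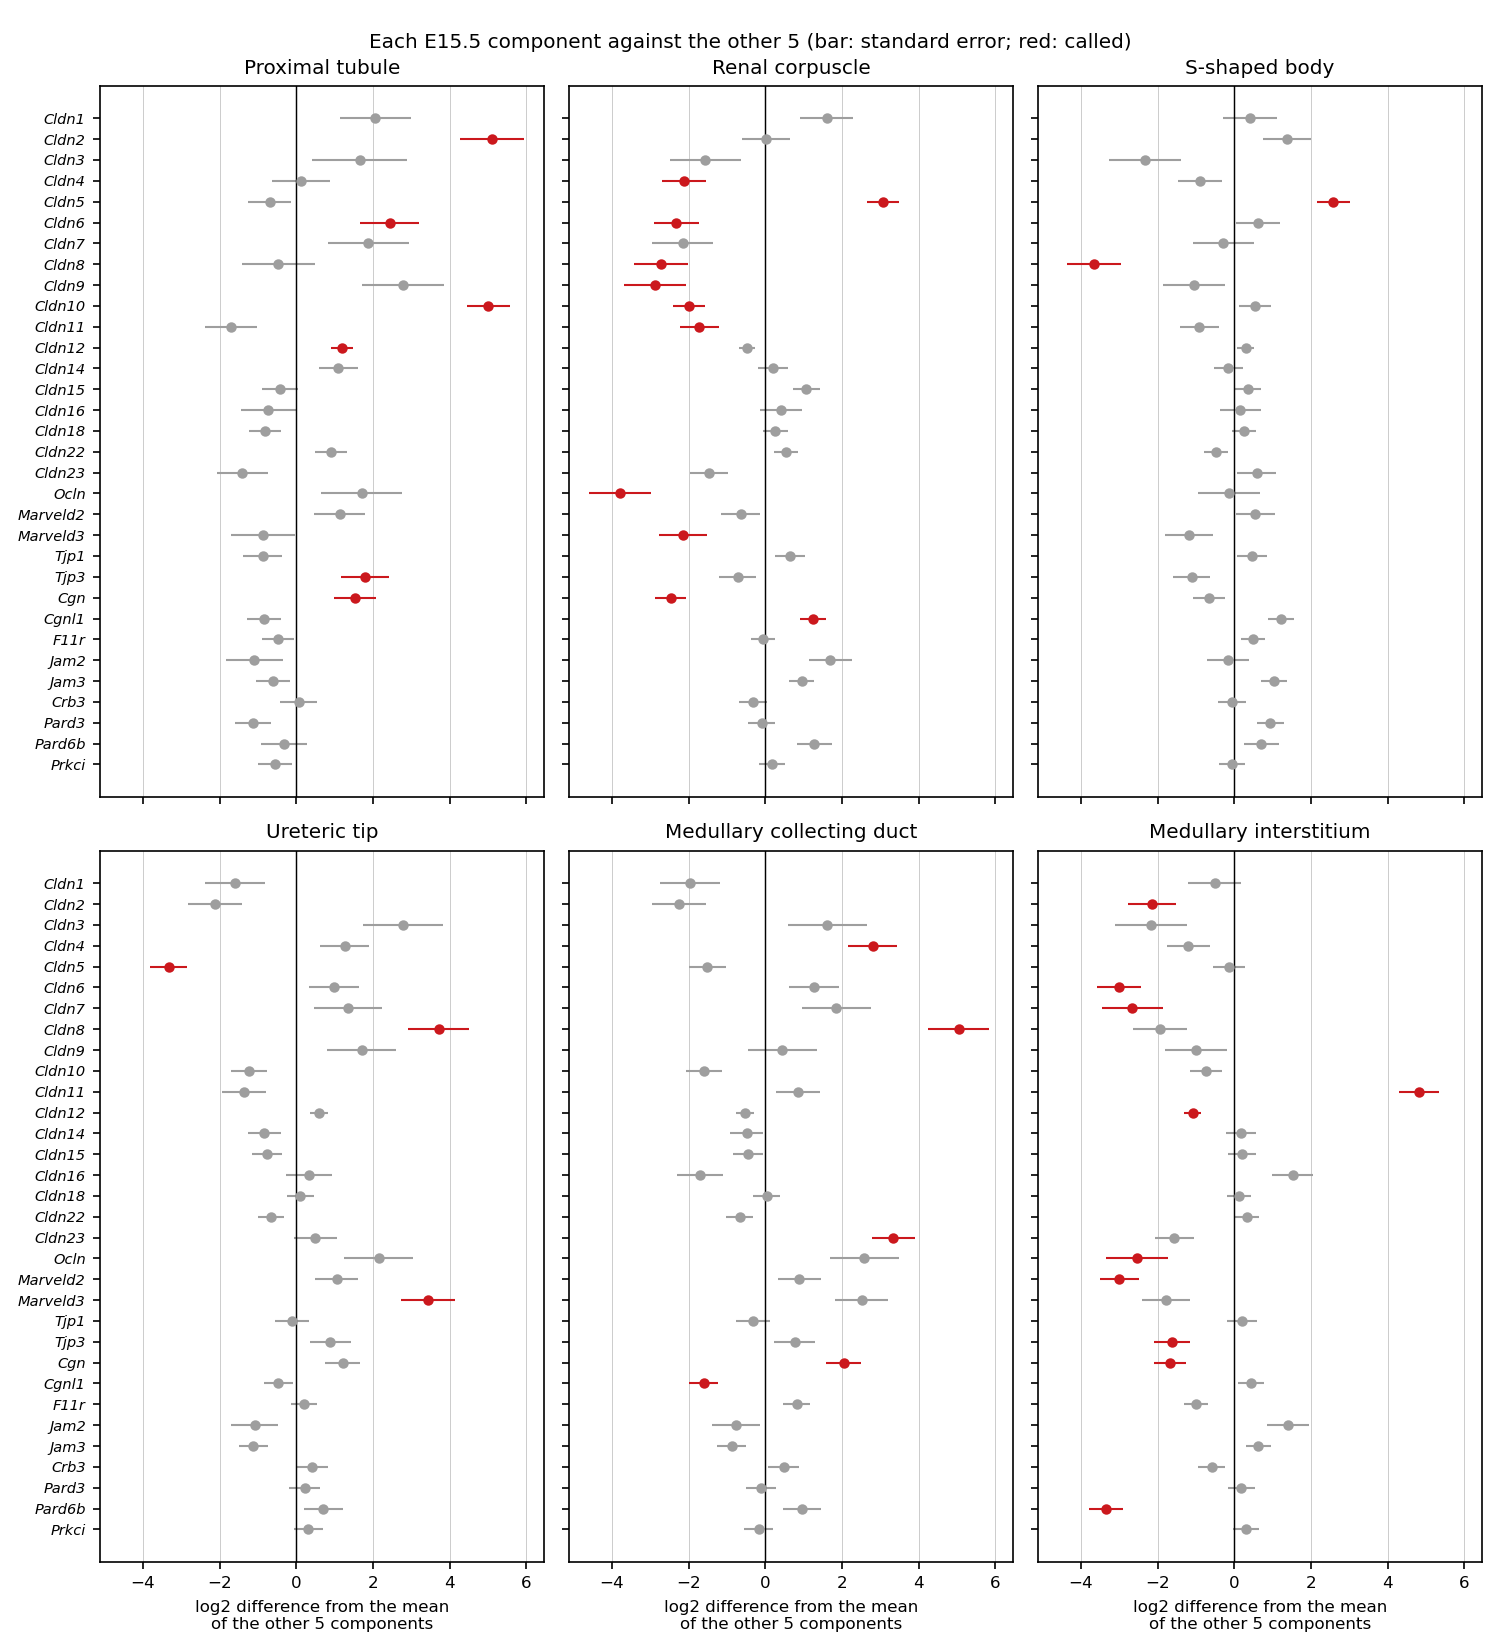
Each E15.5 component against the mean of the other 5. Panels are components, rows are the 32 tested members, the horizontal axis is the log2 difference with its standard error, and called members are red. Cldn2 stands at 5.11 and Cldn10 at 5.01 in the proximal tubule, Cldn8 at 5.05 in the collecting duct, Cldn11 at 4.82 in the interstitium and Cldn5 at 3.08 in the corpuscle.

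Marveld2 was at 10.65 or more in every vesicle, S-shaped body, proximal tubule, tip, duct and bud array and between 5.5 and 10.74 in the interstitium. Ocln was called higher than 4 components in each of bud, tip, collecting duct and proximal tubule. Its second probe set had 7.88 in the S-shaped body where the one used had 10.74, and both had their lowest component mean in the corpuscle (6.72 and 7.70). Marveld3 was called above 6 components in bud and tip and above 4 in the collecting duct.

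Among the scaffolds, Tjp1 was between 12.60 and 15.27 in 36 arrays and at 10.31 in vesicle library 1. Tjp3 averaged 10.40 in proximal tubule, 9.79 in bud and 7.56 in interstitium. Cgn and its paralog Cgnl1 had different patterns: Cgn was highest in the bud (12.43 to 13.39) and lowest in the corpuscle, and Cgnl1 was between 12.19 and 13.79 in mesenchyme, bud, S-shaped body and corpuscle arrays and lowest in the collecting duct (9.49, 10.95 and 10.97). Cgnl1 has further probe sets, with component means of at most 8.68, so its calls rest on 1 probe set.

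Jam3 had component means from 9.56 in the tip to 11.55 in the vesicle, and Jam2 from 7.13 in the proximal tubule to 9.46 in the corpuscle. Neither was called in any of the 15 comparisons with all libraries. The Jam2 calls without both doubted libraries were made with 1 probe set. Another, nearly as bright (mean 8.22 against 8.50), had 7.74 in the corpuscle, 7.39 in the S-shaped body, 7.60 in the interstitium and 9.80 in the mesenchyme, with all libraries. Crb3 was higher in the bud than in the mesenchyme, and Pard6b was lowest in interstitium (8.90) and mesenchyme (9.53) and highest in the corpuscle (12.96, 12.42, 13.13 and 12.49). Prkci, the kinase of the PAR complex, had component means between 12.82 and 13.94 by the probe set used. Its second probe set ran from 6.03 in the mesenchyme to 10.26 in the collecting duct, so the 2 disagree.

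Cldn14, Cldn16, Cldn18 and Cldn22 were called in none of the 15 comparisons, and Cldn15, an intestinal pore claudin, was also called in none with all libraries. Cldn16 and Cldn19, which work together in the thick ascending limb, had component means of 5.89 to 8.59 and 6.13 to 7.12, and Cldn19 exceeded 7.89 in 1 of 37 arrays. Cldn14 had component means of 6.86 to 8.47, Cldn18, a claudin of lung and stomach, 6.83 to 7.72, and Cldn22 8.05 to 9.56. No detection calls were used, so whether levels near 7.89 exceeded background was not tested.

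Of 30 other junction genes listed for comparison, 23 were measured. Between bud and mesenchyme 2 of them were called, Lsr, the angulin of tricellular contacts, higher (1.97, adjusted p = 0.0274) and Amot lower (-1.62, adjusted p = 0.00502). In the vesicle 2 were higher than in the mesenchyme and 6 lower, with Igsf5 at 2.91, Patj at -2.65, Magi3 at -2.48 and Mpdz at -2.17. From vesicle to S-shaped body 3 rose, Ildr2 by 4.16, Patj by 3.05 and Esam, an endothelial adhesion molecule, by 2.16. Without both doubted libraries Patj was still called (2.70), and Ildr2 (3.58, adjusted p = 0.06) and Esam (1.67, adjusted p = 0.079) were not. Ildr2 was lower in ureteric than in nephron tubule tissue (-3.84). In the corpuscle Esam was higher (1.87, and 2.42 without both doubted libraries) and Patj lower (-1.57, and -1.55 with an adjusted p of 0.071 without them), in the proximal tubule Prkcz, the other atypical protein kinase C, was higher (2.90) and Rab13 lower (-1.80), and in the interstitium Lsr (-3.98) and Prkcz (-2.57) were lower. With all libraries, none of the 23 was called by limma in the other 8 comparisons, where 0 to 5 of them had an unadjusted p under 0.05. Without both doubted libraries, Esam was called lower in the tip (-1.70) and Amot in the collecting duct (-1.22), each against the other E15.5 components. Calls were then also gained by Ildr2 (3.52) and Magi3 (-2.64) in the corpuscle, Lsr (2.09) in the proximal tubule and Igsf5 (-2.08) in the interstitium.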

How the data were processed

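Per the labels' protocols, each sample was a pool of sections whose RNA was amplified in 2 rounds and hybridised to an Affymetrix mouse array. The deposited values are linear signal intensities, scaled by the authors so that the 2% trimmed mean was 1500 on all 37 arrays; GCOS is named in the submitters' processing notes and its version is not given in the sources used here. Median intensity ranged from 126.78 to 333.89. Depth does not apply to arrays; their number limits the precision.

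Of 45101 probe sets, 64 were controls, 34945 named 1 gene, 932 several and 9160 none in the platform annotation; 34754 symbols matched RefSeq. An offset of 34.62, the 20th percentile, was added before log2, and arrays were quantile normalised. Probe sets above 7.89, the pooled median, in at least 2 arrays were kept, and the one with the highest mean stood for its gene, which left 15709 genes. limma 3.58.1 (R 4.3.3) fitted 1 mean per component to the 37 arrays (lmFit, then eBayes with trend and robust options; 28 residual degrees of freedom). The 15 comparisons and the 36 pairs of components were contrasts of that fit, with Benjamini-Hochberg adjustment over all genes. The fit was tested on simulated data.

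Replicate numbers are by accession order. Numbers in the titles did not pair the arrays: deviations of arrays with the same number had a median correlation of 0.01. The members and gene lists were chosen with earlier results of these data known. Members called in at least 1 comparison are given by array or component and the others by range; of the other junction genes, up to 4 with the largest change are named per comparison, and of each marker list its first measured genes, up to 4. Alternatives were another offset, no quantile normalisation, no filter, another probe set per gene, array weights, date or number in the titles as a term, fewer arrays, and each replicate left out.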

Additional observations from a re-analysis of the deposited data

Results flagged for a closer look

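In each group of 4 to 10 arrays, the lowest and the highest value of every member were set against the rest (Dixon's criterion), which flags about 1 group in 20 by chance. Of 192 groups, 13 (6.77%) held such an array. Among claudins, Cldn1 was at 8.66 in renal corpuscle library 1 against 11.63 to 12.16 in the others, and Cldn8 was at 5.48 in medullary interstitium library 3 against 8.71 to 8.82. Cldn10 was at 8.56 in mesenchyme library 6 against 6.75 to 7.57, and at 6.7 in ureteric bud library 1 against 7.32 to 7.34. Cldn11 was at 7.06 in renal vesicle library 4 against 8.83 to 9.17, and at 10.96 in S-shaped body library 3 against 8.03 to 8.46. Cldn14 was at 5.6 in bud library 3 against 7.42 to 7.55, and Cldn18 at 5.83 in mesenchyme library 7 against 6.79 to 7.62. Among the scaffolds, Tjp1 was at 10.31 in vesicle library 1, below all other vesicle arrays. Tjp3 was at 9.46 in bud library 3 against 9.89 to 9.92, and at 6.42 in S-shaped body library 3 against 8.46 to 8.56. F11r was at 9.9 in mesenchyme library 8 against 11.16 to 11.59, and Pard3 at 12.12 in vesicle library 4 against 10.3 to 10.71.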

How the results depend on the processing

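Of the 80 calls of a member in a comparison, 29 held in every alternative run. Over the alternatives other than leaving out 1 library, 833 of 969 member values stayed called in their direction, 135 were no longer called, and 1 reversed: Cgnl1 in renal vesicle against mesenchyme, at 0.055 by the probe set with the largest variance. With 1 library left out, 1089 of 1212 stayed called and none reversed. The causes of the changes below were not tested. Counts in these runs are of members only, without the share of all genes called in the same run. Whether a change in count is particular to the members therefore cannot be told from them. Members called from bud to tip (0) became 3 with the offset at the 40th percentile, 2 without quantile normalisation, 1 with the largest-variance probe set, 1 without probe sets of suffix _x_at or _s_at, 6 with array weights and 7 with only those components fitted. Tip against collecting duct (0) gave 1 with the 40th percentile offset and 3 with array weights. Corpuscle against S-shaped body (0) gave 1 with the 10th percentile offset and 2 without both doubted libraries. S-shaped body against vesicle (2) gave 5 without quantile normalisation, 1 with the largest-variance probe set and 1 with only those components. Array weights gave 1 for proximal tubule against S-shaped body, 5 for collecting duct against bud, 2 for corpuscle, 2 for proximal tubule, 15 for tip and 10 for collecting duct against the other E15.5 components. With only the components compared, the counts were 1 for proximal tubule against S-shaped body, 7 for collecting duct against bud, 5 for corpuscle and 3 for proximal tubule against the others. Vesicle against mesenchyme gave 0 with the mesenchyme titled laser capture.

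With the date in the titles as a fixed term, which could not be fitted for comparisons with the vesicle, the counts were 1 for proximal tubule against S-shaped body, 1 for collecting duct against bud, 4 for ureteric against nephron tubule, 0 for S-shaped body (limma; 4 at an unadjusted p under 0.05), 3 for corpuscle and 8 for collecting duct against the others, and 149 calls of members over the 28 pairs of components that could be fitted, which held 241 without the term. The title number as a replicate block, although the numbers did not pair the arrays, gave 3 for vesicle against mesenchyme and 6 for interstitium against the others; the other counts stayed within 1.5 times. Leaving out 1 library gave 0 to 2 calls for corpuscle against S-shaped body, 1 to 6 for proximal tubule against S-shaped body, 4 to 14 for corpuscle, 2 to 6 for proximal tubule, 1 to 3 for tip, 2 to 6 for collecting duct and 6 to 14 for interstitium against the others. Without quantile normalisation the median of all genes moved from -0.22 to 0.16 for tip against bud and from -0.19 to 0.21 for collecting duct against bud, and the share of calls that were higher from 47.7% to 76.1% and from 40.4% to 68%. That share moved from 39.5% to 58.7% for ureteric against nephron tubule, from 65.6% to 77% for S-shaped body against vesicle, from 18% to 32% for corpuscle against S-shaped body, and, against the others, from 60.1% to 47.5% for proximal tubule, 46.6% to 61% for tip, 73.2% to 86.7% for collecting duct and 49.6% to 39.5% for S-shaped body. Small groups (2 proximal tubule arrays) and signals near the filter limit the precision.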
